A study of Mus musculus with 16 samples.

Results

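The 10 genes described here are markers of epithelial injury and repair, namely Spp1, Havcr1, Lcn2, Clu, Vcam1, Krt8, Krt18, Krt19, Sox9 and Cdkn1a, out of 55359 gene identifiers counted in each library. They were chosen by name, with earlier results of these data known, and each symbol matched 1 identifier. Counts of markers set beside the share over all genes are therefore descriptive. RNA was measured by bulk sequencing of polyA RNA from whole ovary and whole kidney of wild-type female mice of the CBAF1 strain, 21 days old. The groups were ovary with PT-2385, ovary with vehicle, kidney with PT-2385 and kidney with vehicle, with 4 libraries in each. PT-2385 inhibits HIF-2α, the oxygen-regulated transcription factor encoded by Epas1, by blocking its pairing with ARNT. It was injected intraperitoneally at 7.5 mg/kg every 12 h for 4 days, and the vehicle was 5% DMSO in saline. All 4 groups also carried a gonadotrophin treatment, 5 IU of PMSG for 48 h and then 5 IU of hCG, and tissue was taken 13 h after hCG. The kidneys therefore came from hormone-primed juvenile mice without a stated kidney injury.

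These genes encode proteins with which an epithelium responds when its cells are damaged or stretched. In the kidney, injured tubule cells shed polarity, put the receptor KIM-1 (the product of Havcr1) on their surface, secrete osteopontin (Spp1), lipocalin 2 (Lcn2) and clusterin (Clu), and express the simple-epithelium keratins and SOX9 while they re-line the tubule. The cell-cycle inhibitor p21 (Cdkn1a) and the adhesion molecule VCAM-1 (Vcam1) mark cells that stop dividing or stay inflamed. In the ovary, ovulation itself opens the follicle wall and the overlying surface epithelium, and the same genes are also expressed by granulosa cells, luteal cells, macrophages or vessels, so there they do not mark a tubule.

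Library depth ran from 12.7 to 43.3 M assigned read pairs (1 M is 1e6) and was extreme in a pair of kidney PT-2385 libraries, replicate 2 (lowest) and replicate 3 (highest). The defining granulosa genes Foxl2, Cyp19a1 and Fshr had 0 counts in all 8 kidney libraries. Proximal tubule markers summed to between 23970 and 28800 CPM (read pairs per 1e6, scaled by TMM, a correction for library composition) in kidney and to at most 127.4 CPM in ovary. That highest ovary value belonged to vehicle replicate 1, in which the tubule genes Kap and Slc34a1 stood at 32.5 and 10.5 CPM. The full list of 10 granulosa genes, not all specific to the ovary, summed to 19.31 to 31.09 CPM in kidney. Kidney vehicle replicate 2 held traces of the steroidogenic genes Hsd3b1 and Cyp11a1, at 3.24 and 1.19 CPM. The other vehicle kidneys had at most 0.419 and 0.152 CPM of them. Epas1 itself differed by −0.05 on the log2 scale in ovary and by 0.01 in kidney, neither past the threshold (adjusted p = 0.818 and 0.89, edgeR). Hif1a and Arnt did not pass in either organ, with adjusted p between 0.577 and 0.943 (edgeR). Nothing in the labels assigns a group's libraries to different animals, and p-values measure only the spread between these samples. In bulk tissue, fewer cells of a type and less RNA per cell cannot be told apart.

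The question was whether PT-2385, given to block HIF-2α, moved these markers in either organ. In kidney, 1 of 10 tested markers passed an adjusted p of 0.05 (quasi-likelihood test of edgeR, Benjamini-Hochberg adjustment over all genes tested). It was Clu, which rose 1.17-fold. The share of all 17763 tested genes that passed in kidney was 5.81%, and 2% passed as higher. In ovary, 0 of 9 tested markers passed in that test, where 0.0497% of 18125 genes did. DESeq2 and limma-voom also called 0 there, and Havcr1 had too few counts to be tested. At an unadjusted p under 0.05 the markers were Spp1, Lcn2 and Cdkn1a in ovary, 3 of 9 against 13.1% of all genes, and Havcr1, Clu, Krt18 and Krt19 in kidney, 4 of 10 against 23.4% of all genes. The median log2 fold change of the tested markers was 0.137 in ovary (−0.00281 over all genes) and 0.161 in kidney (0.00623 over all genes), with 7 positive values in each organ. Positive values made up 49.3% and 51.5% of all genes tested in ovary and kidney.

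**Figure D1:**
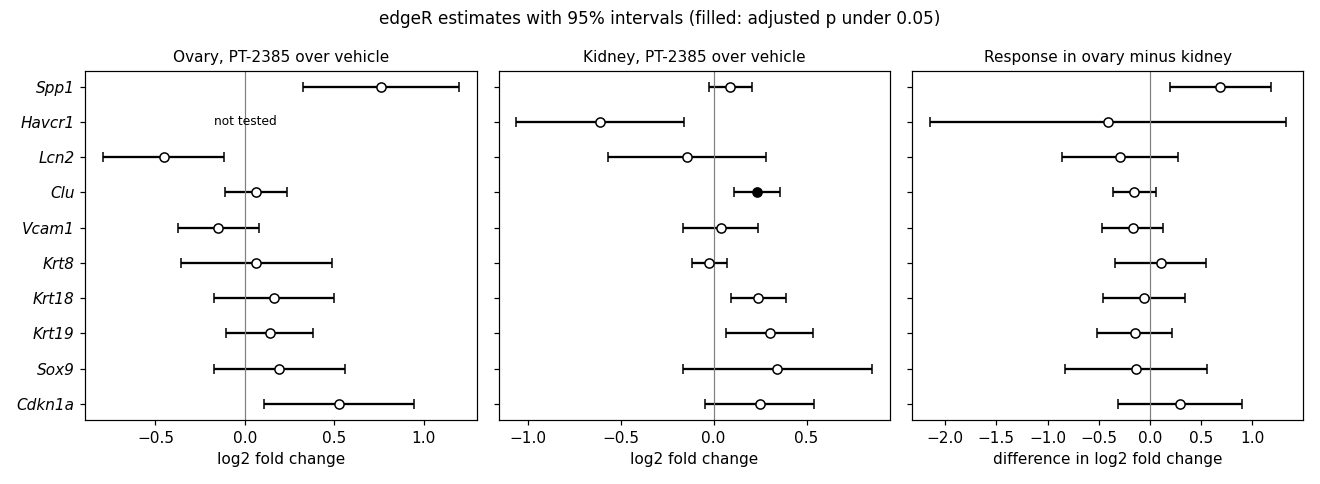
Log2 fold change of each marker with its 95% interval from edgeR, PT-2385 over vehicle in ovary (left) and kidney (middle), and the ovary response minus the kidney response (right). A filled point marks an adjusted p under 0.05, which is met by Clu in kidney alone among the markers tested. Havcr1 was not tested in ovary.

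Spp1 encodes osteopontin, a secreted phosphoprotein that binds integrins and CD44, and lies on chromosome 5 (104582984 to 104588916, plus strand, GRCm39). It was the most abundant marker per transcript length in all 4 groups. In ovary its TMM-scaled CPM were 2567, 2203, 3128 and 2502 in PT-2385 libraries 1 to 4, against 1286, 1009, 1886 and 1965 in vehicle libraries 1 to 4. All 4 PT-2385 ovaries lay above all 4 vehicle ovaries. The means were 2600 ± 386 CPM with PT-2385 and 1536 ± 464 CPM with vehicle (SD, n = 4 each). The log2 fold change was 0.76 (SE 0.199), a 1.69-fold difference with a 95% interval of 1.25 to 2.29, and it did not pass after adjustment (adjusted p = 0.187, edgeR). Non-overlap in that direction was seen for 3.18% of all genes tested in ovary. Macrophage markers, from cells that can also make osteopontin, summed to 152.7 to 194.5 CPM in PT-2385 ovaries and to 166.3 to 226.4 CPM in vehicle ovaries, so their ranges overlapped and 10 of 12 had negative fold changes. Luteal and theca cell genes summed to 12680 to 13550 CPM in PT-2385 ovaries and to 12160 to 19780 CPM in vehicle ovaries, with the highest sum in vehicle replicate 2, the lowest in Spp1. Endothelial genes had negative fold changes in 9 of 10, and nuclear noncoding RNA ranged more widely in vehicle ovaries (1390 to 3731 CPM) than in PT-2385 ovaries (2376 to 2796 CPM). Granulosa genes summed to 2961 to 4003 CPM in PT-2385 ovaries and to 3173 to 3402 CPM in vehicle ovaries, with overlapping ranges. Of these genes 6 of 10 had positive fold changes, against 49.3% of all genes. The part of these cells and RNAs in the Spp1 values was not tested. A fit that shared its spread estimate over all 16 libraries gave Spp1 in ovary an adjusted p of 0.0316.

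In kidney Spp1 stood at 1155, 1213, 1238 and 1321 CPM with PT-2385, against 1110, 1085, 1218 and 1217 CPM with vehicle. The groups overlapped. Spp1 did not pass there (log2 fold change 0.09, SE 0.0549, adjusted p = 0.343, edgeR), with a 95% interval of 0.982- to 1.15-fold. Of the exon bases counted for Spp1, 18.8% are shared with the gene model Gm42793 on the same strand, and read pairs falling on both were left unassigned by the authors' counting.

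The promoter of Spp1 is shown because the gene had the highest fold change of the markers in ovary, and those of Havcr1, Krt8 and Krt18 below because they were at or near the threshold in kidney or pair with a gene that was. HIF proteins bind DNA at a core of ACGTG or GCGTG. That core was searched on both strands in the 250 bases before each transcript start given by RefSeq (GRCm38.p6), where ACGTG on the one strand overlaps itself on the other in CACGTG. It was present in 38.6% of 32851 windows of the same length over all genes (16.6% for ACGTG and 28.2% for GCGTG). Windows were at hand for 6 of the 10 markers, 10 windows in all, and 4 of these, from Havcr1, Krt18 and Cdkn1a, held a core. Neither of the Spp1 windows did. The letters TATAAA, a common core promoter element, were found in 12.4% of all windows and once among the markers, 211 bases before the first Spp1 start, and stand in capitals here (chr5:104434861-104435110, plus strand).
Spp1: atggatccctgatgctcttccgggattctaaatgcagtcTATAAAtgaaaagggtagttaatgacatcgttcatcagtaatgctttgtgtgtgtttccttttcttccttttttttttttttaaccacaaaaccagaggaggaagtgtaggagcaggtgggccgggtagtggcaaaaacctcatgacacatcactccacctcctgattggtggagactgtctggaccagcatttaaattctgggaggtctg

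Lcn2, on chromosome 2 (32274645 to 32277809, minus strand, GRCm39), encodes lipocalin 2, a secreted protein that withholds iron from bacteria and is a urinary marker of acute tubular damage. In ovary it stood at 5.55, 5.55, 6.06 and 5.89 CPM with PT-2385, against 6.63, 10.6, 6.54 and 7.94 CPM with vehicle. It was the 1 tested marker whose PT-2385 ovaries all lay below the vehicle ovaries, as 3.77% of all genes did. Its log2 fold change was −0.45, with SE 0.156 and adjusted p = 0.262 in edgeR, or 0.73-fold with a 95% interval of 0.577 to 0.923. Without vehicle replicate 2 it was −0.28. The PT-2385 ovaries were closely grouped, with a coefficient of variation of 4.4% against 23.9% in vehicle ovaries, and vehicle replicate 2 was the highest. Neutrophils also carry Lcn2. Their markers summed to 8.69 to 12.6 CPM in PT-2385 ovaries and to 6.54 to 14.9 CPM in vehicle ovaries, and 5 of 6 tested had positive fold changes. Vehicle replicate 2, the highest in Lcn2, had 8.97 CPM of Ltf, the neutrophil and mucosal protein lactoferrin, against 1.06 to 1.94 CPM in the other vehicle ovaries. Among other neutrophil genes, Camp was lowest in that library, at 1.79 CPM against 2.18 to 4.17 CPM in the other vehicle ovaries. S100a8, S100a9 and Csf3r lay there within the range of the other vehicle ovaries, and Ngp was highest at 0.0978 CPM. Vehicle replicate 2 also had 26.1 CPM of the oviduct gene Ovgp1, against 0.636 to 1.53 CPM in the other vehicle ovaries. The part of these cells in the Lcn2 values was not tested. In kidney Lcn2 was low and overlapping, at 1.64 to 1.88 CPM with PT-2385 and 1.22 to 2.38 CPM with vehicle (log2 fold change −0.14, SE 0.201, adjusted p = 0.717, edgeR).

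Clu, on chromosome 14 (66205932 to 66218996, plus strand, GRCm39), encodes clusterin, a secreted chaperone that binds misfolded proteins and is released by damaged tubules. In kidney it stood at 364, 363, 393 and 384 CPM with PT-2385, against 288, 309, 354 and 331 CPM with vehicle. Every PT-2385 kidney was above every vehicle kidney, a pattern that 5.37% of all genes showed in kidney. The means were 376 ± 14.9 CPM with PT-2385 and 320 ± 28.4 CPM with vehicle (SD, n = 4 each). Clu therefore rose by 0.23 on the log2 scale (SE 0.0585, adjusted p = 0.0308, edgeR), 1.17-fold with a 95% interval of 1.08 to 1.28. The call was lost when vehicle replicate 2 or PT-2385 replicate 1, 3 or 4 was left out (adjusted p = 0.102, 0.0502, 0.12 and 0.0952, edgeR) and in the fit over all 16 libraries (adjusted p = 0.133). In ovary Clu was higher in level but close between groups, at 764 to 892 CPM with PT-2385 and 754 to 831 CPM with vehicle (log2 fold change 0.06, SE 0.0795, adjusted p = 0.784, edgeR).

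**Figure D2:**
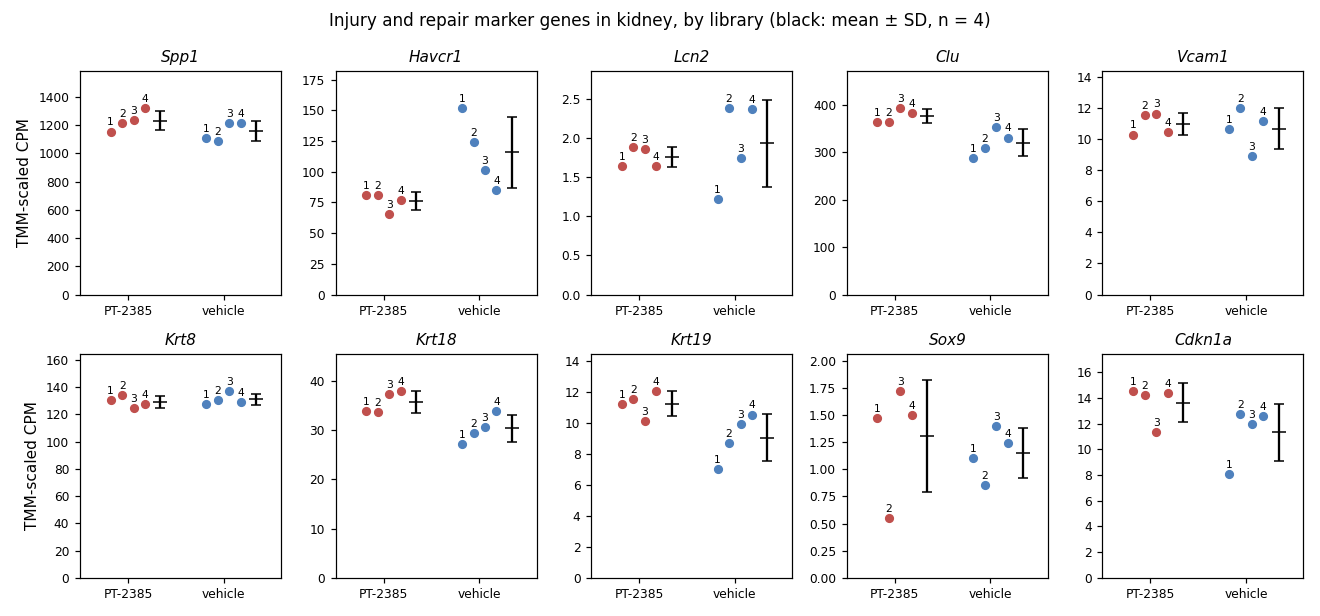
TMM-scaled CPM of each marker in the 8 kidney libraries, PT-2385 (red) left and vehicle (blue) right, with the replicate number above each point and the mean ± SD (n = 4) in black. All 4 PT-2385 kidneys lie above the vehicle kidneys for Clu (363 to 393 against 288 to 354 CPM) and below them for Havcr1 (65.2 to 80.9 against 85.2 to 152 CPM).

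Havcr1, on chromosome 11 (46630888 to 46670405, plus strand, GRCm39), encodes KIM-1, a phosphatidylserine receptor with which proximal tubule cells take up dying neighbours and which is scarce in undamaged tubules. In kidney it stood at 80.9, 80.9, 65.2 and 77.1 CPM with PT-2385, against 152, 124, 101 and 85.2 CPM with vehicle. The groups did not overlap, with PT-2385 lower, as for 7.89% of all genes tested in kidney. The means were 76.0 ± 7.43 CPM with PT-2385 and 116 ± 28.9 CPM with vehicle (SD, n = 4 each). The log2 fold change was −0.61 (SE 0.188), 0.655-fold with a 95% interval of 0.479 to 0.895, which did not pass after adjustment (adjusted p = 0.114, edgeR). The vehicle kidneys were the more scattered, the highest being 1.78 times the lowest against 1.24 times among PT-2385 kidneys. Without vehicle replicate 4, the lowest of its group, the adjusted p was 0.035, and DESeq2 and limma-voom gave 0.0245 and 0.0281 over all libraries. The other 14 of 17 settings left Havcr1 uncalled, with adjusted p up to 0.265, and its log2 fold change ran from −0.73 to −0.45 over all 17.

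KIM-1 is made by the proximal tubule. Of 14 genes of healthy proximal tubule tested in kidney, 4 passed as lower with PT-2385 (3.81% of all genes did), 0 passed as higher, and 12 had negative fold changes. Their summed level was 23970 to 26270 CPM in PT-2385 kidneys and 25730 to 28800 CPM in vehicle kidneys, with overlapping ranges. The passing genes were Aqp1, a water channel at 720 ± 16.5 CPM with PT-2385 and 933 ± 85.3 CPM with vehicle (log2 fold change −0.37, adjusted p = 0.00399, edgeR), Slc27a2 (−0.37, adjusted p = 0.0125), Acsm2 (−0.23, adjusted p = 0.0195) and Cubn (−0.44, adjusted p = 0.0299). Their part in the Havcr1 values was not tested. Aqp1 passed with any 1 library left out, with adjusted p up to 0.0234. Slc27a2, Acsm2 and Cubn lost their call in 3, 2 and 4 of the 8 omissions, with adjusted p up to 0.0561, 0.0885 and 0.102. The fit of all 16 libraries ended the calls of Slc27a2 and Acsm2 (adjusted p = 0.68 and 0.888, edgeR), and a fit without a filter those of Slc27a2 and Cubn (adjusted p = 0.105 and 0.144).

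In ovary Havcr1 was near the limit of detection. All 4 PT-2385 ovaries together held 13 read pairs and the 4 vehicle ovaries 34, of which 20 came from vehicle replicate 1, the library with traces of tubule genes. The levels were 0.059, 0.154, 0.121 and 0.157 CPM with PT-2385, against 0.647, 0.13, 0.0909 and 0.237 CPM with vehicle (exact permutation test, two-sided, p = 0.257, with 0.0286 the smallest possible with 4 against 4). The groups overlapped. The first RefSeq window of Havcr1 held no HIF core, and the other ones each held ACGTG, 239 and 154 bases before their starts. The window of the second start is shown with the core in capitals (chr11:46750261-46750510, plus strand, GRCm38.p6).
Havcr1: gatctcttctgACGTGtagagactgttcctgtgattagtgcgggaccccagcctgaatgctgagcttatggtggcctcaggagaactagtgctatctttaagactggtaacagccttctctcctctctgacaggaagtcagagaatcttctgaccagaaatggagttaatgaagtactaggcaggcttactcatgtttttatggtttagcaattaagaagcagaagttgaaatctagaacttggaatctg

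Vcam1, on chromosome 3 (115903598 to 115923337, minus strand, GRCm39), encodes the cell-surface ligand of integrin α4β1 that holds leukocytes and also marks tubule cells in failed repair. It was at a like low level in all 4 groups. In ovary it stood at 7.31 to 8.84 CPM with PT-2385 and 8.34 to 10.1 CPM with vehicle (log2 fold change −0.15, SE 0.104, adjusted p = 0.561, edgeR). In kidney it stood at 10.3 to 11.6 CPM with PT-2385 and 8.88 to 12.0 CPM with vehicle (log2 fold change 0.04, SE 0.0943, adjusted p = 0.85, edgeR). Its 95% intervals ran from 0.771- to 1.05-fold in ovary and from 0.894- to 1.18-fold in kidney.

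Krt8 and Krt18 encode the type II and type I keratins that pair into the filaments of simple epithelia, and Krt19 encodes a smaller type I keratin that also pairs with keratin 8. Krt8 and Krt18 lie near each other on chromosome 15 (101905133 to 101912917, minus strand, and 101936615 to 101940462, plus strand, GRCm39), and Krt19 on chromosome 11 (100031636 to 100036946, minus strand). In kidney Krt18 stood at 33.9, 33.7, 37.4 and 37.9 CPM with PT-2385, against 27.2, 29.5, 30.7 and 33.96 CPM with vehicle. Only the highest vehicle library reached into the PT-2385 range. The log2 fold change was 0.24 (SE 0.0695, adjusted p = 0.0513, edgeR), 1.18-fold with a 95% interval of 1.07 to 1.31, just outside the threshold. Of 17 other settings 12 left it uncalled, limma-voom among them, with adjusted p up to 0.458. It passed with adjusted p of 0.0271 by DESeq2, 0.0385 without a filter on low counts and 0.0492 with a filter at 1 CPM in 4 libraries. It also passed under a block on replicate number and without vehicle replicate 4 (adjusted p = 0.0221 and 0.0209, edgeR).

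Krt19 in kidney stood at 11.2, 11.5, 10.1 and 12.0 CPM with PT-2385, against 7.05, 8.71, 9.93 and 10.5 CPM with vehicle. The groups overlapped by 1 vehicle library. Its log2 fold change was 0.30 (SE 0.111, adjusted p = 0.114, edgeR), 1.23-fold with a 95% interval of 1.05 to 1.45. Krt8, their partner, was level, at 131, 134, 124 and 127 CPM with PT-2385 and 128, 131, 137 and 129 CPM with vehicle (log2 fold change −0.02, SE 0.0454, adjusted p = 0.811, edgeR). Its 95% interval ran from 0.921- to 1.05-fold. The difference between the keratins was not tested. Per transcript length, the ratio of Krt18 to Krt8 was 0.353, 0.342, 0.409 and 0.405 in PT-2385 kidneys and 0.29, 0.307, 0.305 and 0.359 in vehicle kidneys, and that of Krt19 to Krt8 was 0.101 to 0.117 in PT-2385 kidneys and 0.0684 to 0.101 in vehicle kidneys.

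In ovary all 3 keratins overlapped between groups. Krt8 stood at 54.9 to 71.9 CPM with PT-2385 and 41.7 to 84.6 CPM with vehicle (log2 fold change 0.06, adjusted p = 0.922, edgeR). Krt18 stood at 39.6 to 49.9 CPM with PT-2385 and 31.0 to 55.2 CPM with vehicle (0.16, adjusted p = 0.681), and Krt19 at 40.1 to 53.8 CPM with PT-2385 and 35.3 to 48.9 CPM with vehicle (0.14, adjusted p = 0.623). Vehicle replicate 3 had the highest level of all 3 within its group and vehicle replicate 2 the lowest. Those libraries also held the extremes of nuclear noncoding RNA (Malat1, Neat1, Xist and others), a sign of RNA quality or nuclear content. It summed to 1390 CPM in vehicle replicate 3 and 3731 CPM in vehicle replicate 2. Vehicle replicates 1 and 4, at 2970 and 3119 CPM, also lay outside the PT-2385 range of 2376 to 2796 CPM for this RNA. Its part in these values was not tested. Surface epithelium and oviduct markers summed to 196.5 to 229.2 CPM with PT-2385 and 191.6 to 206.6 CPM with vehicle. Krt8 and Krt18 were about equal per transcript length in ovary, with ratios of 0.945 to 1.05 with PT-2385 and 0.889 to 1.01 with vehicle.

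The promoters of the keratin pair differ in the searched core. The Krt8 window (chr15:102004343-102004592, minus strand, GRCm38.p6) held neither form, while the Krt18 window (chr15:102027966-102028215, plus strand, GRCm38.p6) held GCGTG 143 and 61 bases before the start, in capitals.
Krt8: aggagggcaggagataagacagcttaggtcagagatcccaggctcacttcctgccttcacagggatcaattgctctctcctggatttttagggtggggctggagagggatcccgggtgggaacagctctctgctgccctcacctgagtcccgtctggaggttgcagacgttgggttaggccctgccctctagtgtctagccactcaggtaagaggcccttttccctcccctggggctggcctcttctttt
Krt18: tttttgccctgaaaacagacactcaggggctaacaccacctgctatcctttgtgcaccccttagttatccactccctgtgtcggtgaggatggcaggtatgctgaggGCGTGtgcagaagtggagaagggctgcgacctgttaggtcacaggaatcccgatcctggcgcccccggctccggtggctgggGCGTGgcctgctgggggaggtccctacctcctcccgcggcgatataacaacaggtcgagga

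**Figure D3:**
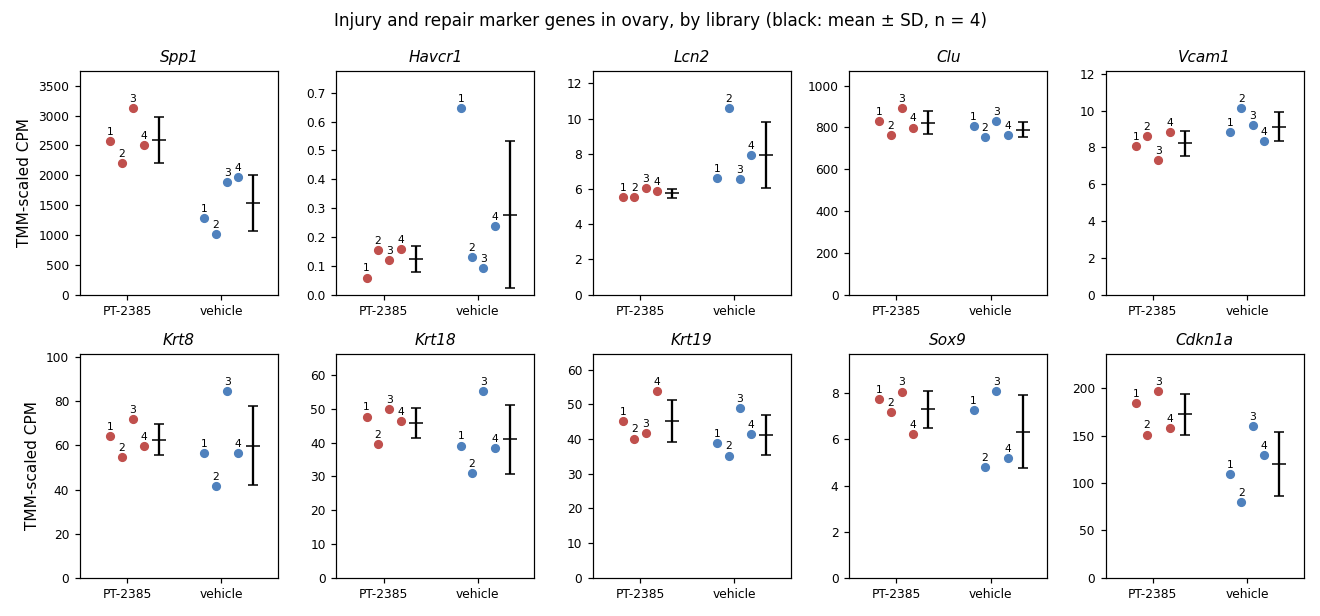
TMM-scaled CPM of each marker in the 8 ovary libraries, PT-2385 (red) left and vehicle (blue) right, with the replicate number above each point and the mean ± SD (n = 4) in black. Spp1 lies higher in all 4 PT-2385 ovaries (2203 to 3128 against 1009 to 1965 CPM) and Lcn2 lower (5.55 to 6.06 against 6.54 to 10.6 CPM), while vehicle replicates 2 and 3 hold the lowest and highest vehicle values of Krt8, Krt18, Krt19, Sox9 and Cdkn1a.

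Sox9, on chromosome 11 (112673050 to 112678586, plus strand, GRCm39), encodes a transcription factor that surviving tubule cells switch on during repair and that steers Sertoli cells in the testis. It was the least abundant marker per transcript length in kidney. In kidney it stood at 1.47, 0.55, 1.72 and 1.5 CPM with PT-2385, against 1.10, 0.857, 1.40 and 1.24 CPM with vehicle. The lowest and the highest value both lay among the PT-2385 kidneys. Sox9 had a log2 fold change of 0.34 in kidney (SE 0.241, adjusted p = 0.414, edgeR), with a wide 95% interval of 0.891- to 1.81-fold. In ovary Sox9 stood at 6.24 to 8.07 CPM with PT-2385 and 4.79 to 8.09 CPM with vehicle (log2 fold change 0.19, SE 0.169, adjusted p = 0.658, edgeR).

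Cdkn1a, on chromosome 17 (29309953 to 29319701, plus strand, GRCm39), encodes p21, which binds cyclin-dependent kinases and stops the cell cycle, largely under the control of p53. In ovary it stood at 184, 151, 197 and 158 CPM with PT-2385, against 109, 80.0, 160 and 130 CPM with vehicle. The groups overlapped through vehicle replicate 3. The means were 173 ± 21.5 CPM with PT-2385 and 120 ± 33.7 CPM with vehicle (SD, n = 4 each). The log2 fold change was 0.53 (SE 0.186), 1.44-fold with a 95% interval of 1.08 to 1.93, and did not pass after adjustment (adjusted p = 0.291, edgeR). In kidney Cdkn1a was lower in level, at 14.5, 14.2, 11.4 and 14.4 CPM with PT-2385 and 8.07, 12.7, 11.9 and 12.6 CPM with vehicle (log2 fold change 0.25, SE 0.134, adjusted p = 0.294, edgeR). Its groups overlapped through PT-2385 replicate 3. Leaving out vehicle replicate 1 took its log2 fold change in kidney to 0.11, and leaving out PT-2385 replicate 3 took it to 0.34. Of the exon bases of Cdkn1a, 10% are shared with the gene model AC167363.2 on the opposite strand, and of those of Krt8 and Vcam1 5.16% and 1.22% with Gm36026 and Gm43109. The recorded counting used no strand option, so the reads of such pairs cannot be told apart.

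The order of the markers was described by TPM, which divides by exon length. In PT-2385 ovaries it was Spp1 (4083 ± 584 TPM), Clu (1176 ± 69), Cdkn1a (164 ± 18.4), then Krt8, Krt18 and Krt19 at 82.9, 82.6 and 74.3, then Lcn2 (16.3), Sox9 and Vcam1 (4.57 and 4.28) and Havcr1 (0.142). Neighbours within the keratin trio and the pair of Sox9 and Vcam1 overlapped. In vehicle ovaries Vcam1 (4.89 TPM) stood before Sox9 (4.09 TPM), overlapping, and Cdkn1a at 117 ± 32.7 TPM overlapped with Krt8 at 81.6 TPM. In PT-2385 kidneys Spp1 (1599 TPM) and Clu (445 TPM) led again, followed by Krt8 (141), Havcr1 (72.0), Krt18 (53.2), Krt19 (15.2), Cdkn1a (10.7), Vcam1 (4.72), Lcn2 (4.11) and Sox9 (0.676). The order was the same in vehicle kidneys, where Havcr1 at 112 ± 31.2 TPM overlapped with Krt8 at 145 TPM and Krt19 at 12.4 TPM with Cdkn1a at 9.02 TPM. Vcam1 and Lcn2 overlapped in both kidney groups. Levels were not tested between organs, because RNA was isolated by different methods, a column kit for ovary and Trizol for kidney.

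Whether the response differed between organs was tested over all 16 libraries as the log2 fold change in ovary minus that in kidney. Of the 10 markers 0 passed by edgeR, DESeq2 or limma-voom (0.16% of 19977 genes did by edgeR), and 1 did so in edgeR at an unadjusted p under 0.05, against 11.8% of all genes. That marker was Spp1, with a difference of 0.69 (SE 0.233, 95% interval 0.19 to 1.18, adjusted p = 0.266, edgeR). The other differences ran from −0.41 for Havcr1 (95% interval −2.15 to 1.33, with the few ovary counts given above) to 0.29 for Cdkn1a. Lcn2 and Clu had differences of −0.30 and −0.15 (adjusted p = 0.711 and 0.58). The signs of Havcr1, Krt8, Krt18 and Sox9 turned when single libraries were left out. The 95% intervals of all markers except Spp1 spanned 0. With 0 of 10 markers passing, no order of the organs can be read for any of them.

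Other injury and repair genes (31 listed, among them Vim, Cd44, Timp1, Ccl2 and Krt20) were tested in the same fits. In kidney all 31 were tested, 3 passed as higher and 0 as lower (edgeR), against 2% and 3.81% of all genes. Positive fold changes were seen for 20, against 51.5% of all genes, with a median log2 value of 0.0564. Tnfrsf12a, the receptor of the cytokine TWEAK, stood at 12.7 ± 0.938 CPM with PT-2385 and 9.14 ± 0.626 CPM with vehicle (SD, n = 4 each). Its log2 fold change was 0.46 (adjusted p = 0.00795, edgeR), and it passed with any 1 library left out. S100a11, a calcium-binding protein, stood at 134 ± 9.13 CPM with PT-2385 and 113 ± 9.76 CPM with vehicle. Anxa2, the membrane-binding annexin A2, stood at 110.4 ± 1.52 CPM with PT-2385 and 94.5 ± 9.26 CPM with vehicle. They rose by 0.24 and 0.22 on the log2 scale (adjusted p = 0.0384 and 0.0399, edgeR), and lost the call in 5 and 6 of the 8 omissions, with adjusted p up to 0.129 and 0.115, and in the fit of all 16 libraries (adjusted p = 0.324 and 0.326). In ovary 0 of 29 tested passed by edgeR, 7 had an unadjusted p under 0.05 (13.1% of all genes did), and the median was 0.0443. Serpina3n, a secreted protease inhibitor, came nearest at 98.0 ± 8.57 CPM with PT-2385 and 74.1 ± 8.75 CPM with vehicle (log2 fold change 0.40, adjusted p = 0.116, edgeR), before Fgb, the fibrinogen beta chain, at 0.726 CPM with PT-2385 and 0.199 CPM with vehicle (1.81, adjusted p = 0.137).

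The targets of p53, which share their regulator with Cdkn1a, were tested as 19 genes in kidney and 20 in ovary. In kidney 2 passed as higher and 0 as lower, against 2% and 3.81% of all genes, with a median log2 fold change of 0.102. Plk2, a kinase, stood at 19.4 ± 3.07 CPM with PT-2385 and 14.2 ± 2.10 CPM with vehicle (0.47, adjusted p = 0.0351, edgeR), and Phlda3, an inhibitor of AKT, at 8.5 ± 1.15 CPM with PT-2385 and 5.74 ± 1.28 CPM with vehicle (0.55, adjusted p = 0.0399). Both were overlapping between groups, and both lost the call in most omissions (6 and 7 of 8, with adjusted p up to 0.126 and 0.121) and in the fit of all 16 libraries (adjusted p = 0.0867 and 0.0801). Plk2 lost it without a filter too (adjusted p = 0.0756). In ovary 0 passed by edgeR, 5 had an unadjusted p under 0.05, against 13.1% of all genes, and the median was 0.0937. The nearest were Aen, a p53-induced nuclease (0.32, adjusted p = 0.222, edgeR), and Tnfrsf10b, a death receptor (0.18, adjusted p = 0.322). The rest of these 5 were Zmat3, which was higher (0.15, adjusted p = 0.37), and Sesn1 and Ei24, which were lower (−0.23 and −0.14, adjusted p = 0.345 and 0.378, edgeR).

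Among 30 receptors, ligands and binding partners of the marker proteins, 29 were tested in each organ. In kidney 1 passed as lower and 1 as higher, where 3.81% and 2% of all genes did, so these counts lie near the background. The median log2 fold change was −0.0168. Itgb8, an integrin chain that activates TGF-β, stood at 135 ± 7.52 CPM with PT-2385 and 173 ± 20.1 CPM with vehicle (−0.36, adjusted p = 0.0127, edgeR). Itga5, the α chain of the fibronectin receptor, stood at 22.2 ± 0.489 CPM with PT-2385 and 18.5 ± 1.63 CPM with vehicle (0.26, adjusted p = 0.0403). Itgb8 lost its call only without PT-2385 replicate 4 (adjusted p = 0.0524), and Itga5 in 6 of 8 omissions, with adjusted p up to 0.144, and in the fit of all 16 libraries (adjusted p = 0.442). In ovary 0 passed by edgeR and 2 had an unadjusted p under 0.05 (13.1% of all genes did), with a median of 0.0913. Itga9, an integrin chain that binds osteopontin, stood at 179 ± 18.1 CPM with PT-2385 and 237 ± 35.7 CPM with vehicle (−0.41, adjusted p = 0.178, edgeR).

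**Figure D4:**
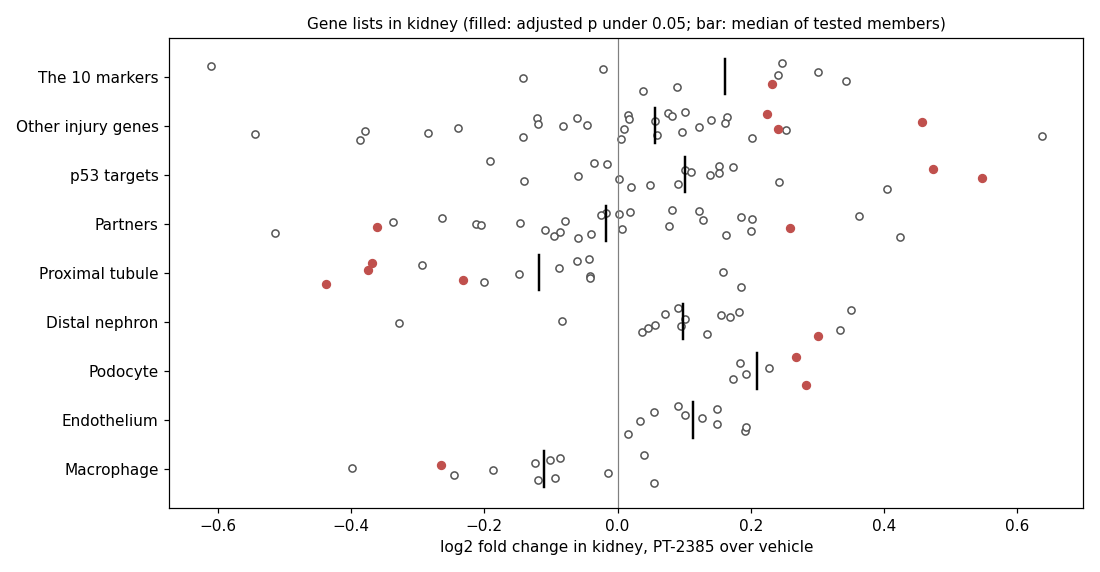
Log2 fold change in kidney, PT-2385 over vehicle, of every tested gene in 9 lists (1 point per gene, filled red where the adjusted p from edgeR was under 0.05, black bar at the list's median). The 10 markers have a median of 0.161 with Clu filled, the proximal tubule genes a median of −0.118 with 4 filled points on the negative side, and the podocyte genes are all positive.

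Markers of other cell types in kidney are given beside these values. In that organ 2% of all genes passed as higher, 3.81% passed as lower, 51.5% had positive fold changes and 23.4% an unadjusted p under 0.05. Podocyte genes, 6 of 6 with positive fold changes, summed to 736.6 to 852.5 CPM in PT-2385 kidneys and to 607.6 to 737.8 CPM in vehicle kidneys, and Wt1 and Synpo passed as higher (0.27 and 0.28, adjusted p = 0.0246 and 0.0384, edgeR). Of 16 thick limb, distal tubule and collecting duct genes, 1 passed as higher, Pvalb (0.30, adjusted p = 0.0334, edgeR), and 14 were positive. These genes summed to 6063 to 6710 CPM with PT-2385 and 6284 to 6780 CPM with vehicle, with overlapping ranges. The thick limb genes Umod and Slc12a1 had lower means with PT-2385, at 1239 and 1698 CPM, against 1555 and 1799 CPM with vehicle. Of 12 macrophage genes 1 passed as lower, Csf1r (−0.27, adjusted p = 0.0254), and their sum was 122.1 to 140 CPM with PT-2385 and 138.5 to 156.8 CPM with vehicle. Endothelial genes were positive in 10 of 10 with 0 passing by edgeR and 5 at an unadjusted p under 0.05, at sums of 689.7 to 766.2 CPM with PT-2385 and 647.5 to 719.4 CPM with vehicle. Of 10 fibroblast and pericyte genes 1 passed as higher, the intermediate filament gene Des (0.30, adjusted p = 0.035, edgeR). In that list 7 were positive, with a median of 0.0133. Their sums overlapped, at 911.5 to 1035 CPM with PT-2385 and 917.6 to 1068 CPM with vehicle. Prlr, the prolactin receptor, passed as lower (−0.35, adjusted p = 0.0462, edgeR). Nuclear noncoding RNA summed to 3474 to 3607 CPM in PT-2385 kidneys and 3113 to 3387 CPM in vehicle kidneys, without overlap. Its main members differed. The mean of Neat1 was 1142 CPM with PT-2385 and 920 CPM with vehicle, and that of Xist 786 and 720 CPM. Malat1 was level at 1576 and 1568 CPM. Each of these genes overlapped between groups. Clu, Krt18 and Krt19 are also expressed outside the proximal tubule, and the part of these markers in their values was not tested. With 1 of the 8 libraries left out, Wt1, Synpo, Pvalb, Csf1r, Des and Prlr lost their call in 3, 4, 5, 3, 5 and 6 omissions, with adjusted p up to 0.106, 0.127, 0.11, 0.0952, 0.128 and 0.137. All 6 calls were also lost in the fit of all 16 libraries (adjusted p = 0.124, 0.143, 0.113, 0.132, 0.722 and 0.168, edgeR), and that of Prlr with median-ratio scaling and without a filter (adjusted p = 0.0507 and 0.164).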

How the data were processed

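Bulk polyA RNA libraries from 2 organs were analysed, 16 in all. The deposited values are raw read pair counts per gene, made by the authors with featureCounts 2.0.6 on paired reads over exons of GENCODE vM27 basic, per the file headers. FastQC, STAR and the build GRCm39 are named in the submitters' processing notes, with versions not given in the sources used here. Per the labels' protocols, between 1.8 and 5 µg of RNA entered each stranded library preparation. The recorded command sets no strand, and read pairs on more than 1 gene model were left unassigned, so the overlaps given for 4 markers limit their counts. Symbols were matched by gene identifier for 52083 of 55359 identifiers (94.1%).

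Each organ was fitted alone with the robust quasi-likelihood test of edgeR 4.0.16 (new method, R 4.3.3, limma 3.58.1), after TMM scaling and filterByExpr at its defaults (count 10, total 15). There were 6 residual degrees of freedom per organ. P-values were adjusted by Benjamini-Hochberg over all genes tested and called under 0.05. Intervals are at 95%. CPM were TMM-scaled within the organ, and TPM were computed from counts and exon length. All 10 markers are named, with Epas1, Hif1a and Arnt beside them. The RNA levels of these 3 genes cannot show whether the pairing with ARNT was blocked. Each called gene of a list is also named (at most 4 per organ), and otherwise at most 2 genes with the smallest p. Some further list genes are named to show levels or differences within a list. The markers and lists were chosen with earlier results of these data known. Depth limits the lowest markers, Havcr1 in ovary and Sox9 and Lcn2 in kidney.

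Other settings tried were DESeq2 1.42.0, limma-voom, scaling by median ratio or upper quartile, no filter, 1 CPM in 4 libraries, a block on replicate number, a joint fit of both organs and leaving out single libraries. The legacy edgeR test and a fit leaving out the pair of libraries whose file names deviate (ovary vehicle replicate 3, numbered 5, and kidney PT-2385 replicate 3, another flow-cell code) were added after seeing the data. The tests were tested on simulated data. Figures used Python 3.11.15 and matplotlib 3.10.9. RefSeq promoter windows were those of GRCm38.p6.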

Additional observations from a re-analysis of the deposited data

Results flagged for a closer look

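Each marker was checked in each of the 4 groups for a library far from the other 3 (a gap ratio above Dixon's 95% critical value, 40 groups checked). 2 groups were found, and chance alone gives about 2. Both concern Cdkn1a in kidney. PT-2385 replicate 3 was the lowest of its group at 11.4 CPM, with a gap ratio of 0.899, while the other PT-2385 kidneys lay between 14.2 and 14.5 CPM. Vehicle replicate 1 was the lowest of its group at 8.07 CPM, with a gap ratio of 0.83, while the other vehicle kidneys lay between 11.9 and 12.7 CPM. PT-2385 replicate 3 is also the deepest library, and its file name holds another flow-cell code. Without PT-2385 replicate 3 the log2 fold change of Cdkn1a in kidney was 0.34, and without vehicle replicate 1 it was 0.11, against 0.25 with all libraries.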

How the results depend on the processing

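Among the markers in ovary, 0 were called with each single library left out and by all alternatives except the block on replicate number (2: Spp1, adjusted p = 0.00762, and Cdkn1a, adjusted p = 0.0254, edgeR) and the fit of all 16 libraries (1: Spp1). In kidney 3 were called by DESeq2 (Havcr1, Clu and Krt18), 2 by limma-voom (Havcr1 and Clu), 2 each without a filter, with 1 CPM in 4 libraries and under the replicate block (Clu and Krt18), 0 in the fit of all 16 libraries, and 0 to 3 with 1 library left out. The block ended the kidney calls of S100a11 and Phlda3 (adjusted p = 0.0502 and 0.055). For the difference between organs, 1 was called under the block (Spp1, adjusted p = 0.0185) and 0 otherwise. Correlations of same-numbered libraries' deviations ran from −0.253 to 0.346 in ovary and −0.081 to 0.0955 in kidney, and 2 of the 4 PT-2385 libraries in each organ correlated best with the vehicle library of their number. Between organs they ran from −0.0424 to 0.0828, were above 0 in 7 of 8 pairs, and 6 of 8 ovary libraries correlated best with the kidney library of their number. Pairs above 0.1 were seen in ovary alone, and the numbers were not taken to pair the samples. Whether both organs came from the same mice is not given in the labels. The test of the difference between organs took ovary and kidney libraries as independent, so shared mice would not be accounted for. The block joined same-numbered PT-2385 and vehicle libraries within an organ and did not join the organs.

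Genes called in ovary numbered 9 in the fit reported here, 322 by DESeq2, 4 by limma-voom, 63 without a filter, 5 with 1 CPM in 4 libraries, 398 under the block, 364 in the fit of all 16 libraries and 0 to 1060 with 1 library left out, the last without vehicle replicate 3. In kidney there were 1032, and 307 in the fit of all 16 libraries and 231 to 1403 with 1 library left out. For the difference between organs there were 32, and 20 with median-ratio scaling, 16 with upper-quartile scaling, 304 by DESeq2, 12 by limma-voom, 50 without a filter, 229 under the block, 344 without both libraries with deviating file names and 0 to 758 with 1 library left out. Genes of the lists called in ovary numbered 3 by DESeq2, 1 without a filter, 8 under the block, 3 in the fit of all 16 libraries and 0 to 11 with 1 library left out. In kidney they numbered 30 by DESeq2, 5 in the fit of all 16 libraries and 2 to 22 with 1 library left out. The causes were not tested.

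Some signs turned. The difference between organs was 0.019 for Sox9 under the block, and 0.16 for Krt18 and 0.20 for Sox9 without both libraries with deviating file names. With 1 library left out, log2 fold changes ran from −0.076 to 0.28 for Krt8 in ovary and from −0.036 to 0.098 for Vcam1 in kidney. The differences between organs then ran from −0.71 to 0.43 for Havcr1, −0.038 to 0.32 for Krt8, −0.18 to 0.12 for Krt18 and −0.27 to 0.054 for Sox9.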

Other observations

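The spread of some markers differed between the treatment groups in ovary. The coefficient of variation over 4 libraries was 14.8% with PT-2385 and 30.2% with vehicle for Spp1, 12.5% and 28.2% for Cdkn1a, and 11.4% and 29.8% for Krt8. In kidney it was 9.77% and 25.0% for Havcr1. These spreads were not tested.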
